A study of Homo sapiens and Mus musculus with 24 samples.

Results

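MCF10A cells are human breast epithelial cells, immortal but not tumorigenic. The parental line and a line with a heterozygous PIK3CA H1047R knock-in, bought from Horizon as an isogenic pair, were each given the solvent DMSO or BYL719 (alpelisib, an inhibitor of PI3K alpha) at 1 uM for 4 h. The comparison described here is the difference between the lines in the response to the inhibitor. For each gene this difference, the interaction of line and treatment, is the log2 change from DMSO to BYL719 in knock-in cells minus the same change in parental cells. It uses the 12 MCF10A libraries of the 24 in the series, 3 in each of the 4 groups (parental DMSO, parental BYL719, knock-in DMSO, knock-in BYL719). Each genotype is represented by one cell line, which may be a single clone, so clone and genotype cannot be told apart. The labels do not say that libraries of a group came from separate cultures, so p-values measure only the spread between these samples, which may be technical.

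PIK3CA encodes the catalytic subunit p110 alpha of PI3K, which makes the membrane lipid PIP3 downstream of receptor tyrosine kinases, and H1047R is an activating change in its kinase domain. PIP3 recruits the kinase AKT, which phosphorylates FOXO transcription factors and keeps them out of the nucleus. When PI3K is inhibited, FOXO factors enter the nucleus and transcribe, among others, receptors and adaptors that feed signal back into the pathway, while SREBP-driven sterol synthesis, MYC-driven ribosome production and the cell cycle, which PI3K and mTORC1 promote, are known to be reduced.

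The libraries held 120177015 to 162755457 estimated read pairs, and 7.83% to 8.92% of the pairs in a library fell on its 20 most abundant genes. Knock-in DMSO replicate 2 stood apart from its group. On the second principal component of log CPM (reads scaled to a common library size) it lay at 54.1, while the other 2 knock-in DMSO libraries lay at 14.1 and 17.1 and the knock-in BYL719 libraries at -30.5 to -38.4. Results that it moves are also given without it. Mitochondrial genes took 1.945% to 2.995% of a library. The epithelial genes KRT5 (3231 to 4020 CPM), CDH1 (94.9 to 263 CPM) and TP63 (23.9 to 107 CPM) were present in all libraries, while the leukocyte gene PTPRC reached at most 0.0764 CPM, the endothelial gene CDH5 at most 0.00764 CPM, and HBB, LEP and OLIG2 were at 0. Other markers of such cells were present. In the haematopoietic list CD14 lay at 3.10 to 6.06 CPM and CD68 at 14.9 to 21.1 CPM. KDR of the endothelial list reached 2.2 CPM, and TUBB3 of the neural list lay at 270 to 423 CPM. The summed level of 9 fibroblast markers was 58.8 to 61.6 CPM in parental DMSO, 66.2 to 70.1 CPM in parental BYL719, 116 to 120 CPM in knock-in DMSO and 187 to 225 CPM in knock-in BYL719, and its part in the results was not tested. Most of this change lay in DCN, a matrix proteoglycan, with 3.90, 4.86 and 5.13 CPM in parental DMSO, 9.94, 10.6 and 10.7 CPM in parental BYL719, 56.1, 56.2 and 51.3 CPM in knock-in DMSO and 125, 148 and 149 CPM in knock-in BYL719. DCN rose in both lines, and its difference in response was 0.19 (adjusted p = 0.50). The collagen genes COL1A2 and COL3A1 were at 4.37 and 2.13 CPM in knock-in BYL719 replicate 3 and at most 0.303 and 0.155 CPM in the other libraries. Of the same list, FAP lay at 29.9 to 44.2 CPM and COL1A1 at 17.4 to 25.8 CPM across the libraries. THY1 reached at most 0.103 CPM and PDGFRA at most 0.436 CPM, and 0 of the 9 markers were called for the difference in response. In bulk RNA, fewer cells of a type and less RNA per cell cannot be told apart.

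PIK3CA itself (chr3:179148126-179240093, GRCh38.p14) is the edited gene, and its total level does not show which allele was read. Its levels were 55.03, 58.5 and 58.6 CPM in parental DMSO, 66.1, 67.4 and 71.3 CPM in parental BYL719, 44.5, 34.5 and 42.7 CPM in knock-in DMSO, and 73.1, 70.1 and 69.8 CPM in knock-in BYL719. The treatments did not overlap in either line, which held for 38.5% of all genes tested in knock-in and 31.4% in parental cells. The knock-in DMSO libraries were the lowest of the 12. The response was 0.56 higher in knock-in cells on the log2 scale (SE 0.11, 95% interval 0.31 to 0.80, adjusted p = 0.0198, edgeR quasi-likelihood test with Benjamini-Hochberg adjustment over all genes, as for every adjusted p below). The knock-in change was 0.81, and the parental change of 0.25 did not pass the threshold. Without knock-in DMSO replicate 2 the difference was 0.44. It held in 6 of 12 fits that each left out 1 library, and not with offsets for effective transcript length (0.69, adjusted p = 0.0828).

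Of 21079 genes tested, 606 (2.87%) responded differently in the lines at adjusted p under 0.05. The response was higher in knock-in cells for 438 (2.08%) and lower for 168 (0.797%). The median size of the difference among these genes was 0.53 on the log2 scale and the smallest was 0.20. The median of the signed difference over all genes tested was 0.01. Among them, 226 were higher and 33 lower by at least 1.5-fold, and 86 and 14 by at least 2-fold. Without knock-in DMSO replicate 2, 1874 genes (8.71%) were called, 1011 higher (4.7%) and 863 lower (4.01%), and 603 of the 606 kept their call and sign. Leaving out any 1 of the 6 parental libraries gave 239 to 346 calls, and leaving out knock-in BYL719 replicate 2 or 3 gave 301 or 287. The counts were 855 without knock-in BYL719 replicate 1, 773 without knock-in DMSO replicate 1 and 451 without knock-in DMSO replicate 3. In all, 208 genes, 175 higher and 33 lower, kept the call in each of the 12 fits.

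For most of the 606 genes the estimated change had the same sign in both lines and was larger in knock-in cells. They comprised 414 genes that rose in knock-in cells, with a median change of 0.86 there and 0.25 in parental cells. Another 146 fell, with medians of -0.57 and -0.18. The parental change itself passed the threshold in 119 of the 414 and 41 of the 146. In 24 genes with a higher and 22 with a lower difference the estimated changes had opposite signs in the lines. Medians in knock-in and parental cells were 0.65 and -0.10 for the former and -0.66 and 0.19 for the latter. The parental change passed the threshold in 1 and 0 of these genes. No called gene had the same direction in both lines and a smaller change in knock-in cells. The difference is computed from both changes, so these classes describe it and do not test it. In the lines taken alone, BYL719 changed 5964 genes (28.3%; 15.1% rose and 13.2% fell) in knock-in and 302 (1.43%; 0.844% rose and 0.588% fell) in parental cells. The 3 libraries of each treatment did not overlap for 38.5% of all genes tested in knock-in and 31.4% in parental cells, the background for such statements below. Of these 302 parental genes, which come from libraries not used for the knock-in change, 301 had the same sign in knock-in cells and 286 a larger size there, with a median ratio of 2.03 between the log2 changes. Without knock-in DMSO replicate 2, which enters the shared estimate of the spread, the parental count was 1973, and without any 1 of the parental libraries it was 73 to 134.

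**Figure D1:**
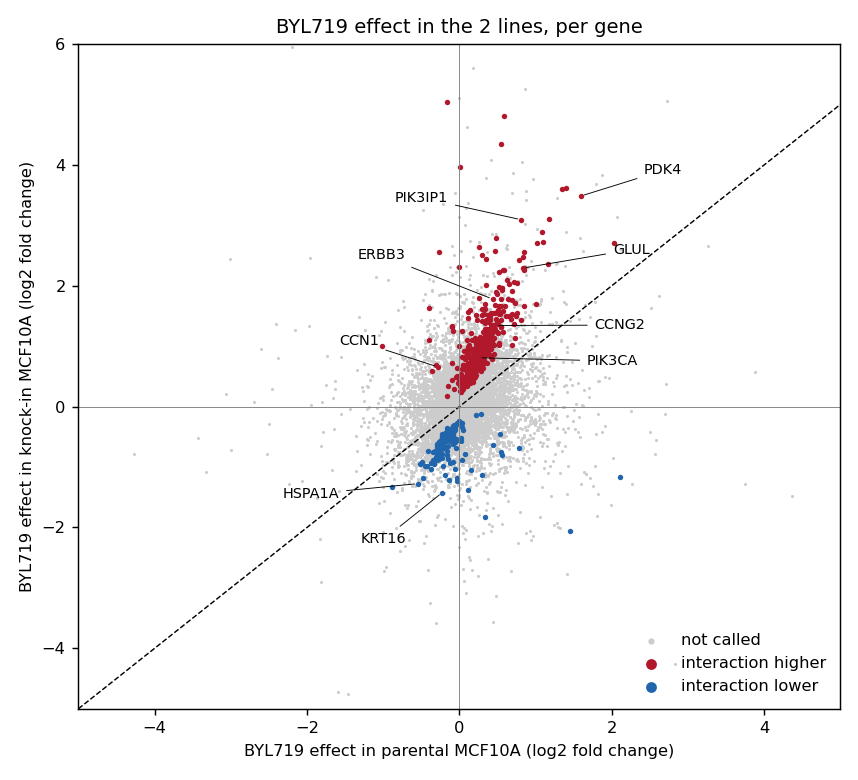
Log2 change with BYL719 in knock-in cells (vertical) against parental cells (horizontal), 1 point a gene, with genes whose response differed between lines in red (438 higher in knock-in cells) or blue (168 lower) and the others in grey; the dashed line marks equal change, and 44 genes, 2 of them called, lie beyond the axes. Called genes that rose lie above the line and called genes that fell lie below it, and few lie in the quadrants of opposite direction.

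The list with the highest share of called members was that of 30 genes that FOXO factors are known to activate. Of these, 21 responded more strongly in knock-in cells and 0 less, against 2.08% and 0.797% of all genes tested. This and the other lists were chosen with earlier results of these data known, so such shares describe a list and do not test it. The median difference was 0.72 on the log2 scale (all genes 0.01), from a median change of 1.13 in knock-in and 0.34 in parental cells. Within a line, 27 rose with BYL719 in knock-in cells and 13 in parental cells, against 15.1% and 0.844% of all genes. Without knock-in DMSO replicate 2, 26 were called, all higher, against 4.7% of all genes, with a median of 0.61.

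Sequence upstream of 3 of these genes is shown because the letters that FOXO proteins recognise can be read in it. HBP1, TXNIP and DEPP1 are given from 250 bases before the RefSeq start site up to it, 5' to 3' on the strand of the gene (GRCh38.p14: HBP1 chr7:107168753-107169002, plus strand; TXNIP chr1:145996580-145996829, minus strand; DEPP1 chr10:44978810-44979059, minus strand). Capitals mark GTAAACA, the reverse complement of the FOXO element TGTTTAC, which begins 173, 124 and 180 bases before the start site.
HBP1: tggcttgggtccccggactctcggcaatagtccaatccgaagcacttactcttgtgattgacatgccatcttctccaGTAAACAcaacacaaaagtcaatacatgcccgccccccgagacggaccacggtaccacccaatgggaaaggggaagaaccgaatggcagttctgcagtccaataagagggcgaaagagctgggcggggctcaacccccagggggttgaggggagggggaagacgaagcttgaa
TXNIP: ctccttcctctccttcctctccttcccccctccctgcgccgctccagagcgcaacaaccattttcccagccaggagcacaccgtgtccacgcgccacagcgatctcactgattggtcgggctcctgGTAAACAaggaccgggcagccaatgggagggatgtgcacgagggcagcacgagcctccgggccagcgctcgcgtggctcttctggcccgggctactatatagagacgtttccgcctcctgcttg
DEPP1: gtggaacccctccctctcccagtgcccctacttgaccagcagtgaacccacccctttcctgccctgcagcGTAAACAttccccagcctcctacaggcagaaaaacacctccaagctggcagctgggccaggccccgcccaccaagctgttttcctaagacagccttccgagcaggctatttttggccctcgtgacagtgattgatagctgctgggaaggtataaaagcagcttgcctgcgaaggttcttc
TGTTTAC was searched on both strands of the window from 250 bases before to 50 after the start. It was found in 3.41% of 27305 promoters of the RefSeq table and in 2.43% of the 12361 tested genes matched to it. Among matched genes with a higher difference 37 of 322 (11.5%) held it, among those with a lower difference 5 of 121 (4.13%), and in the FOXO list 6 of 26. HBP1, TXNIP, DEPP1, YPEL3 and PIK3CA were the called list members that held it, and they count among the 37. The called members without it included PIK3IP1, PDK4, CCNG2, IRS2 and INSR. A match describes these letters only. Overlap with other motifs was not examined.

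PIK3IP1 (chr22:31281593-31292534), which encodes an inhibitor of the PI3K catalytic subunit, had the largest difference of the list. Its levels were 2.02, 2.20 and 2.48 CPM in parental DMSO, 3.96, 3.58 and 4.19 CPM in parental BYL719, 1.34, 0.928 and 0.877 CPM in knock-in DMSO, and 8.35, 9.03 and 9.55 CPM in knock-in BYL719. No 2 groups overlapped, and the knock-in line was the lower of the lines in DMSO and the higher under BYL719. The rise was 8.53-fold in knock-in and 1.75-fold in parental cells, a log2 difference of 2.28 (SE 0.20, 95% interval 1.85 to 2.72, adjusted p = 0.000104).

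PDK4 (chr7:95583499-95596516) encodes a kinase that inactivates pyruvate dehydrogenase and so restrains the use of glucose carbon in mitochondria. It stood at 16.4, 19.4 and 20.9 CPM in parental DMSO, 55.2, 55.3 and 60.2 CPM in parental BYL719, 18.2, 14.8 and 16.3 CPM in knock-in DMSO, and 155, 196 and 202 CPM in knock-in BYL719. The lines overlapped in DMSO and were far apart under BYL719. It rose 11.2-fold in knock-in and 3.02-fold in parental cells (log2 difference 1.89, SE 0.16, adjusted p = 9.0e-05).

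HBP1 (chr7:107169003-107202522), a repressor of cell cycle genes, went from 49.7, 53.03 and 54.4 to 73.1, 75.4 and 76.0 CPM in parental cells and from 35.1, 29.4 and 33.9 to 92.6, 96.8 and 94.4 CPM in knock-in cells. CCNG2 (chr4:77157207-77170060), a cyclin linked to cell cycle exit, went from 70.7, 74.1 and 74.9 to 101, 102 and 101 CPM and from 49.2, 46.2 and 47.6 to 116, 122 and 124 CPM. Both showed the same order of groups as PIK3IP1, with knock-in DMSO lowest and knock-in BYL719 highest and no overlap. The log2 differences were 1.01 (adjusted p = 0.000104) and 0.87 (adjusted p = 2.21e-05). TXNIP, an inhibitor of thioredoxin and of glucose uptake, rose from 262, 269 and 281 to 370, 354 and 353 CPM in parental cells and from 235, 228 and 230 to 444, 449 and 441 CPM in knock-in cells (difference 0.54, adjusted p = 0.000428). YPEL3, a growth suppressor, had a difference of 1.71, KLHL24 one of 1.35, and TNFSF10, which encodes the death ligand TRAIL, one of 1.01.

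The 9 members that did not pass the threshold were SESN3, RICTOR, BCL2L11, FOXO1, FOXO3, TRIB1, BBC3, SOD2 and GADD45A. The first 5 had differences of 0.61, 0.69, 0.46, 0.38 and 0.35, with adjusted p from 0.0857 to 0.13, and the intervals of all 5 lay above 0. GADD45A, a stress-induced growth arrest gene, had a difference of -0.17 (95% interval -0.46 to 0.13), and SOD2, mitochondrial superoxide dismutase, one of -0.01 (-0.18 to 0.16).

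**Figure D2:**
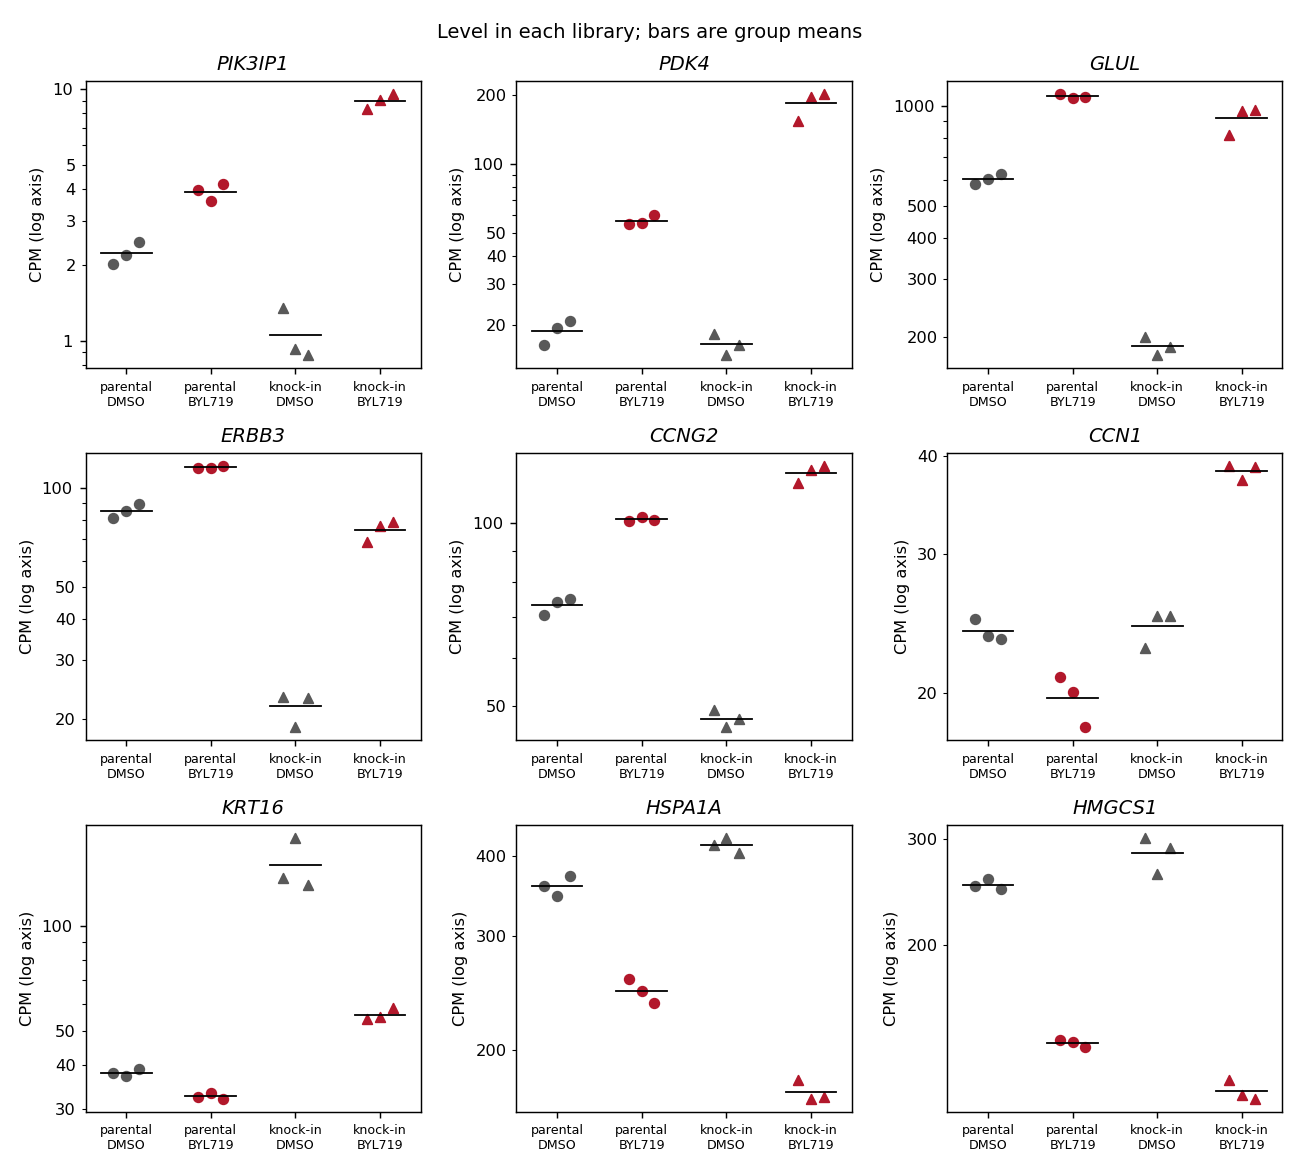
CPM of 9 genes in each of the 12 libraries (log axis), with circles for parental and triangles for knock-in cells, red for BYL719, and bars at group means. For PIK3IP1, PDK4, GLUL, ERBB3 and CCNG2 the step from DMSO to BYL719 is taller in the knock-in line, and for KRT16, HSPA1A and HMGCS1 it is a deeper drop there.

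Receptors and adaptors that sit upstream of PI3K, several of which are also in the FOXO list, shared this pattern in part. Of 23 tested, 6 had a higher difference (ERBB3, IRS2, INSR, IGF1R, GAB2 and GRB7) and 0 a lower one, against 2.08% and 0.797% of all genes tested. The list's median was 0.31. The counts were 9 and 1 without knock-in DMSO replicate 2, the latter IRS1 (-0.47), against 4.7% and 4.01% of all genes. The median was then 0.21. ERBB3 (chr12:56080108-56103505), the receptor HER3, which binds PI3K directly when phosphorylated, stood at 81.1, 85.0 and 89.2 CPM in parental DMSO, 115, 115 and 116 CPM in parental BYL719, 23.3, 18.9 and 23.1 CPM in knock-in DMSO and 68.5, 76.8 and 78.7 CPM in knock-in BYL719. Knock-in cells were below parental cells in both treatments, so the stronger rise narrowed the gap between the lines from -1.97 to -0.62 on the log2 scale (difference in response 1.34, SE 0.11, adjusted p = 7.54e-05). IRS2, an insulin receptor substrate, went from 29.4, 26.4 and 27.99 to 37.8, 37.5 and 38.2 CPM in parental cells and from 20.6, 20.7 and 21.0 to 65.4, 64.9 and 52.7 CPM in knock-in cells. Here knock-in BYL719 lay above all other groups (difference 1.12, adjusted p = 0.000159). The scaffold GAB2 rose from a mean of 3.98 to 6.13 CPM in parental and from 2.86 to 12.2 CPM in knock-in cells (1.46, adjusted p = 0.000218), and GRB7, an adaptor that binds ERBB2 and ERBB3, from 20.7 to 33.2 and from 6.99 to 26.3 CPM (1.23, adjusted p = 0.000223). INSR and IGF1R, the insulin and IGF1 receptors, had differences of 0.94 and 0.62, and the IGF1R call held in 3 of 12 fits that left out a library. EGFR (0.38, 95% interval -0.07 to 0.83) and ERBB2 (0.22, 0.11 to 0.34, adjusted p = 0.0511) did not pass the threshold.

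Among 32 components of the PI3K and mTOR pathway itself, 3 had a higher difference and 0 a lower one, against 2.08% and 0.797% of all genes tested. The median was 0.12. Without knock-in DMSO replicate 2 the counts were 6 and 1, the latter PIK3R3 (-0.52), against 4.7% and 4.01% of all genes. The median was then 0.03. The 3 genes called with all libraries were PIK3IP1, PIK3CA and SGK1, a kinase related to AKT (0.42, adjusted p = 0.0196, kept in 4 of 12 fits that left out a library). PIK3IP1 and PIK3CA are also in the FOXO list. MTOR, RPTOR, TSC2 and the regulatory subunit genes PIK3R1, PIK3R2 and PIK3R3 did not pass, with values from -0.38 for PIK3R3 to 0.22 for MTOR.

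**Figure D3:**
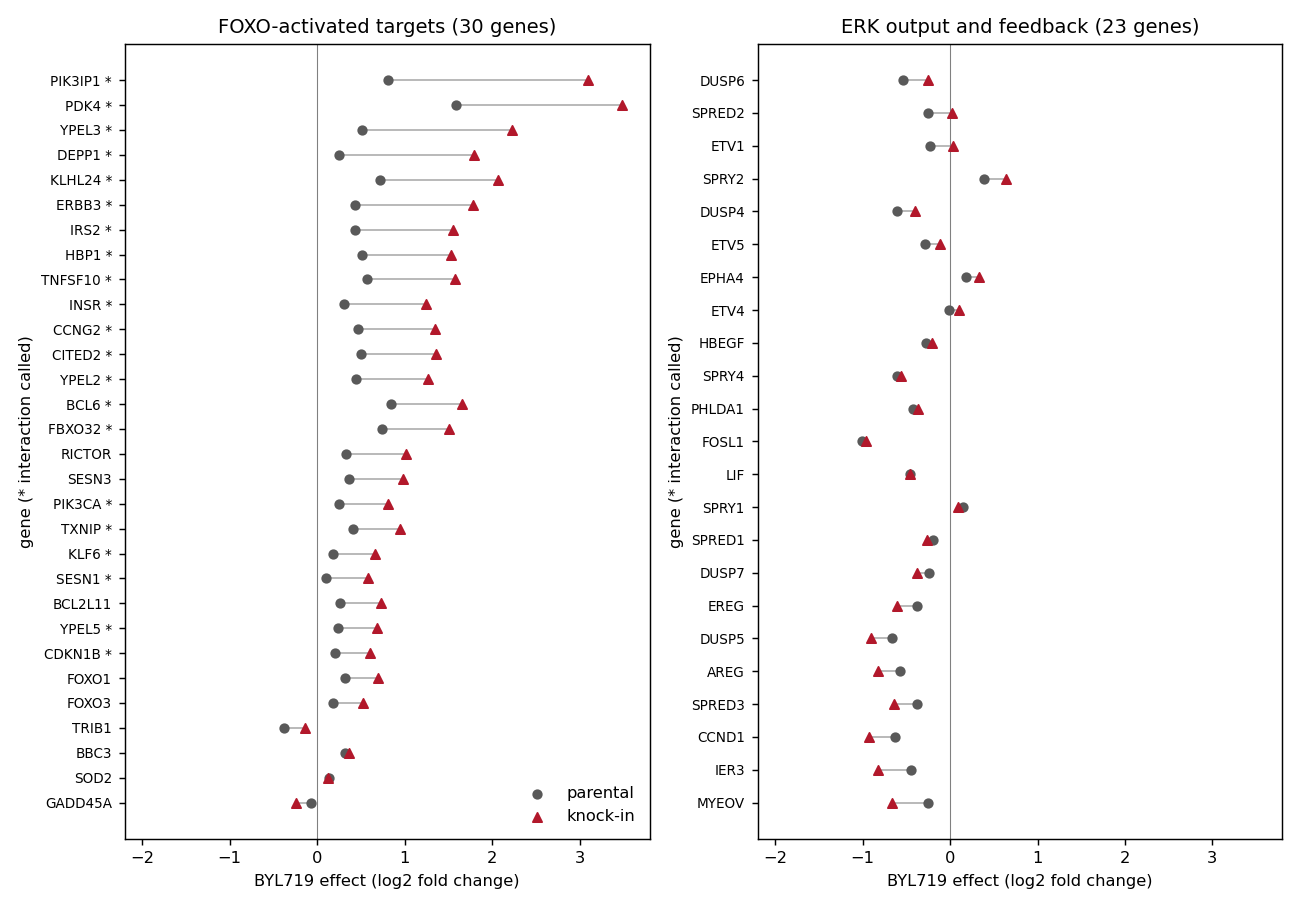
Log2 change with BYL719 for the 30 FOXO-activated genes and the 23 genes of ERK output and feedback, with a circle for parental and a triangle for knock-in cells and an asterisk where the difference was called. In the FOXO list 21 genes carry an asterisk and their triangles lie to the right of the circles, while in the ERK list none does.

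GLUL (chr1:182378098-182391790), glutamine synthetase, stood at 581, 604 and 625 CPM in parental DMSO, 1088, 1057 and 1069 CPM in parental BYL719, 200.5, 177 and 187 CPM in knock-in DMSO and 821, 968 and 972 CPM in knock-in BYL719. Knock-in DMSO was lowest in every library, and knock-in BYL719 stayed below parental BYL719. The rise was 4.89-fold against 1.77-fold (log2 difference 1.46, SE 0.10, 95% interval 1.25 to 1.67, adjusted p = 2.21e-05). SLC7A2 (chr8:17494069-17570566), a transporter of cationic amino acids, stood at 19.0, 19.9 and 18.8 CPM, 24.0, 26.6 and 28.8 CPM, 26.1, 17.9 and 24.8 CPM, and 139, 134 and 138 CPM in the same order of groups. The knock-in BYL719 libraries alone were high, and the parental change did not pass the threshold (difference 2.12, adjusted p = 3.95e-05). Of 20 amino acid transporters tested, 7 had a higher difference and 0 a lower one, against 2.08% and 0.797% of all genes tested. The median was 0.14. Without knock-in DMSO replicate 2 the counts were 7 and 1, against 4.7% and 4.01% of all genes, with a median of 0.01. The 7 called with all libraries included SLC7A8 (1.08), SLC43A1 (0.72) and SLC38A2 (0.49), which carry neutral amino acids. SLC7A5, SLC3A2 and SLC1A5, which supply leucine and glutamine, were not among them, at -0.03, -0.27 and -0.21.

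Other genes with the largest positive differences under the naming rule were CCDC85A (2.24), the transcription factor gene BACH2 (1.71), TCP11L2 (1.69) and YPEL1 (1.67). With offsets for the authors' effective lengths, which follow isoform use, BACH2, TCP11L2 and YPEL1 lost their calls (1.08, 1.24 and 1.70, adjusted p 0.151, 0.286 and 0.163). DKK1 (chr10:52314281-52317657), a secreted Wnt inhibitor, went from 71.3, 66.4 and 65.4 to 85.4, 87.4 and 82.5 CPM in parental cells and from 58.5, 73.9 and 62.1 to 199, 212 and 221 CPM in knock-in cells. The lines overlapped in DMSO, and the knock-in BYL719 libraries alone were high (1.37, adjusted p = 5.98e-05). BMF, which encodes a pro-apoptotic BH3-only protein, was the only one of 15 BCL2 family genes called (1.44, adjusted p = 0.00236), and it rose 4.90-fold in knock-in and 1.80-fold in parental cells. CALHM2 had a difference of 1.09 (adjusted p = 2.21e-05).

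For the lists in this paragraph, the shares over all genes tested were 2.08% higher and 0.797% lower. Without knock-in DMSO replicate 2 they were 4.7% and 4.01%. Of 28 lysosome and autophagy genes, 5 had a higher difference and 0 a lower one (median 0.05, or 0.08 with 7 higher and 0 lower without knock-in DMSO replicate 2). These were ULK1, the kinase that starts autophagosome formation (0.76, adjusted p = 0.000563), MITF, a transcription factor of lysosomal genes (0.75), GABARAPL1, an ATG8 protein (0.72), WIPI1 (0.41) and ATG2A (0.34), which act at the forming membrane. ULK1 went from 91.2, 87.8 and 93.1 to 118, 118 and 120 CPM in parental cells and from 49.2, 46.5 and 47.7 to 94.3, 112 and 109 CPM in knock-in cells, which brought the lines near each other under BYL719. The cathepsins, LAMP1 and SQSTM1 were not called. Of 14 Kruppel-like factors, 4 had a higher difference and 0 a lower one (KLF4 0.43, KLF6 0.48, KLF7 0.61, KLF9 0.77), with a median of 0.41, and 6 without knock-in DMSO replicate 2. Over the 12 fits that each left out a library, the call held in 2 for KLF6, which is also in the FOXO list, and in 5 for KLF9. Of 20 basal epithelial genes 2 had a higher difference, TP63 (0.67, adjusted p = 0.0072), which encodes the p63 factor of basal cells, and DSC3, a desmosomal cadherin (0.55, adjusted p = 0.0445, kept in 3 of 12 such fits), and 1, KRT16, a lower one. Leaving out knock-in DMSO replicate 2 gave 6 and 2. TP63 went from 74.7, 77.4 and 82.7 to 104, 105 and 107 CPM in parental cells and from 30.5, 23.9 and 29.5 to 57.7, 59.9 and 61.3 CPM in knock-in cells.

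KRT16 and CYP4F3 had the most negative differences of the eligible genes that kept their call in all 12 fits. KRT16 (chr17:41609778-41612767), a keratin of stressed and proliferating epidermis, stood at 37.8, 37.3 and 38.8 CPM in parental DMSO, 32.3, 33.2 and 32.0 CPM in parental BYL719, 138, 179 and 132 CPM in knock-in DMSO and 54.3, 54.9 and 58.2 CPM in knock-in BYL719. Knock-in DMSO was high in each library, and BYL719 brought it down without reaching the parental level. The difference was -1.20 (SE 0.13, 95% interval -1.48 to -0.91, adjusted p = 0.000476), and the parental change of -0.22 did not pass the threshold. KRT16 shares reads with pseudogene copies, so its level is uncertain. CDKN1C, the CDK inhibitor p57, had the same shape, with 28, 28.6 and 32.5, then 28.6, 28.4 and 28.3 CPM in parental cells and 90.1, 117 and 83.8, then 45.0, 50.5 and 46.3 CPM in knock-in cells (-0.97, adjusted p = 0.00438). CYP4F3, which oxidises leukotrienes, had a difference of -1.20 that lost its call with effective-length offsets (-0.83, adjusted p = 0.0891). ARRDC4, an arrestin relative, JMJD6, TDG and LTV1 had differences of -0.65, -0.61, -0.61 and -0.55.

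The list of chaperones, among them heat shock proteins that the factor HSF1 induces, held several genes with a lower difference. Of 18 tested, 6 had a lower difference and 0 a higher one, against 0.797% and 2.08% of all genes, the median was -0.27 and 0 of 18 values were positive. The median change was -0.37 in knock-in and -0.07 in parental cells. Within a line, 14 fell in knock-in and 5 in parental cells, against 13.2% and 0.588% of all genes. Without knock-in DMSO replicate 2, 7 had a lower difference, against 4.01% of all genes, and the median was -0.18. This list too was chosen with earlier results known, so its shares do not test it. The sequences before HSPA1A and HSPA1B, the stress-inducible HSP70 genes, are shown because the letters of the heat shock element can be read in them. They cover the 250 bases before each RefSeq start site on the plus strand (GRCh38.p14, HSPA1A chr6:31815293-31815542 and HSPA1B chr6:31827488-31827737), with a match to GAANNTTC, the core of the heat shock element, in capitals 106 and 105 bases before the start.
HSPA1A: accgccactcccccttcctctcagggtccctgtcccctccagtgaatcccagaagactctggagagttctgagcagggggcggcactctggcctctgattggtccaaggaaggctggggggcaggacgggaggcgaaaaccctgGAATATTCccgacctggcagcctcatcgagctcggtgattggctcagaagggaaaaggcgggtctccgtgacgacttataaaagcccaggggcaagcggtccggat
HSPA1B: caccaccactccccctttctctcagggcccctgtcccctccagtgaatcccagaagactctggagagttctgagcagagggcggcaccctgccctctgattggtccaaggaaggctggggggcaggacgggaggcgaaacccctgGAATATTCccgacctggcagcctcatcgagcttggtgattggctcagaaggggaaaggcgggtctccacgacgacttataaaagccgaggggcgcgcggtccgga
GAANNTTC reads the same on both strands, and with the window extended to 50 bases past the start it was found in 6.87% of all promoters and 4.96% of matched tested genes. It was present in 9 of 121 matched genes with a lower difference (7.44%), in 11 of 322 with a higher one (3.42%) and in 5 of 18 heat shock genes. The called chaperone genes HSPA1A, HSPA1B, DNAJA1 and HSPA8 held it and so count among both the 9 and the 5. DNAJB1 and HSPH1, also called, did not hold it. Here too a match describes these letters only.

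HSPA1A (chr6:31815543-31817942) stood at 359, 347 and 372 CPM in parental DMSO, 258, 247 and 236 CPM in parental BYL719, 417, 427 and 404 CPM in knock-in DMSO and 179, 168 and 169 CPM in knock-in BYL719. It was highest in knock-in DMSO and lowest in knock-in BYL719, with no overlap. The log2 change was -1.27 in knock-in and -0.54 in parental cells, a difference of -0.73 (SE 0.07, 95% interval -0.88 to -0.59, adjusted p = 0.000159). HSPA1B had a difference of -0.61 (adjusted p = 0.000218). The pair is nearly identical, so how reads were divided between them is uncertain. The constitutive HSP70 gene HSPA8 went from a mean of 3099 to 1857 CPM in knock-in cells and from 2503 to 2038 CPM in parental cells (-0.44, adjusted p = 0.00268). The co-chaperone genes DNAJA1 (-0.53), DNAJB1 (-0.38) and HSPH1 (-0.36) were the other called members. HSP90AA1 and HSP90AB1, the cytosolic HSP90 genes, did not pass (-0.30 and -0.17), nor did the endoplasmic reticulum chaperone HSPA5 (-0.16).

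**Figure D4:**
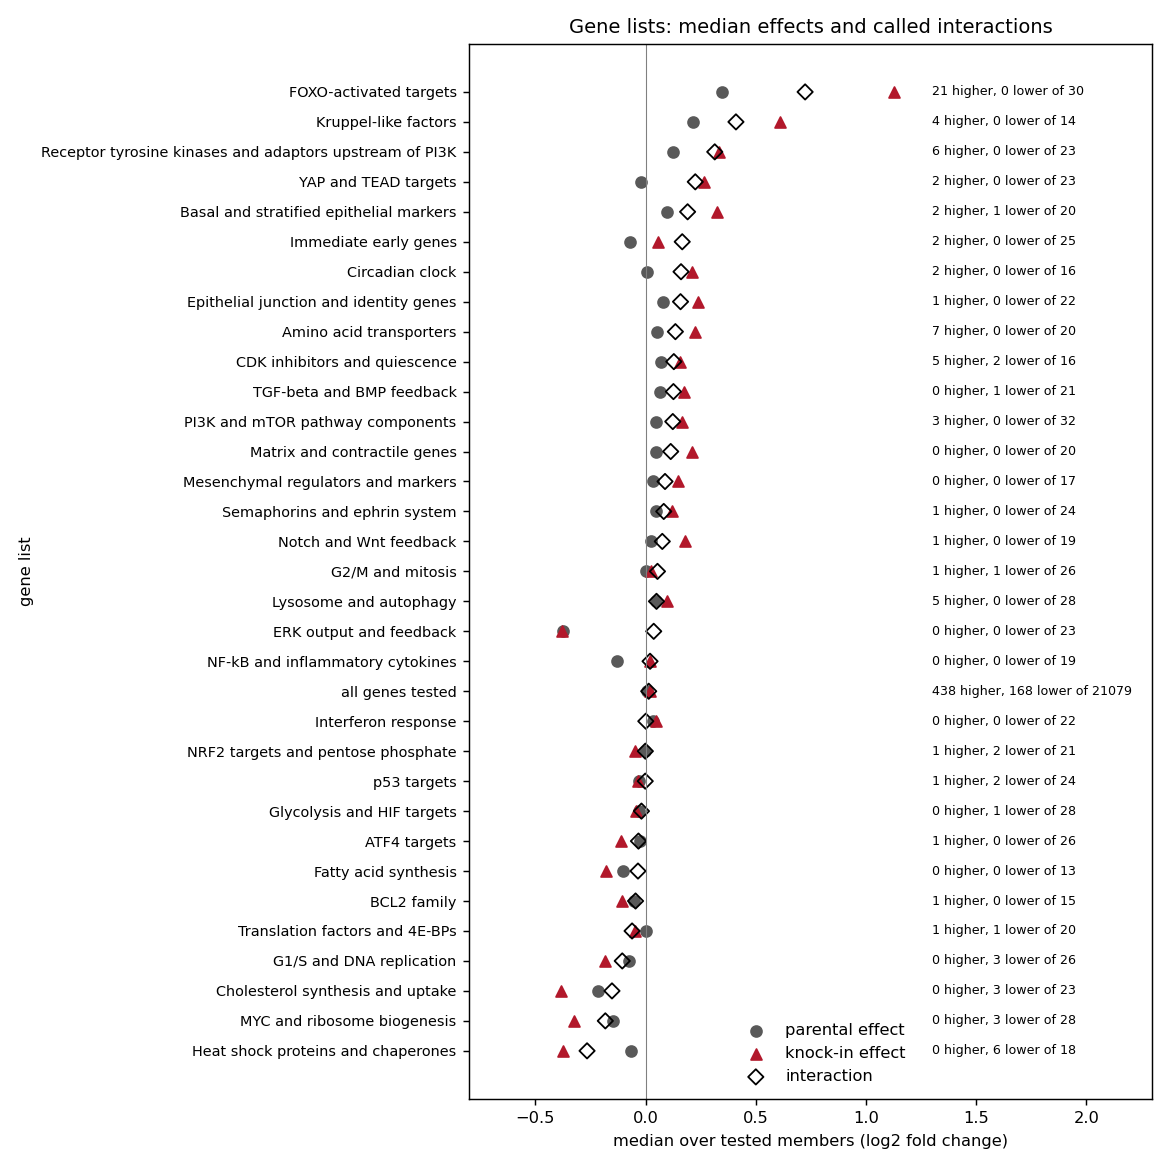
Median log2 change of each gene list with at least 10 tested members in knock-in and parental cells, beside the median difference in response. The FOXO list has the highest median difference (0.72) and the heat shock list the lowest (-0.27), while the ERK list lies near 0 with a median change of -0.38 in both lines.

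Sterol synthesis, ribosome production and DNA replication genes fell with BYL719 in knock-in cells for most of their lists, and fewer members were called for a difference between lines. The called shares were 13.0%, 10.7% and 11.5%, all lower, against 0.797% of all genes tested. Within a line, 13.2% of all genes tested fell in knock-in and 0.588% in parental cells. Of 23 cholesterol genes 18 fell in knock-in and 9 in parental cells, and 3 had a lower difference (median -0.15). HMGCS1 (chr5:43287470-43313412), an early enzyme of the pathway, stood at 251, 257 and 248 CPM, then 138, 137 and 135 CPM in parental cells and at 302, 262 and 290.3 CPM, then 119, 112 and 110.5 CPM in knock-in cells. The treatments were far apart in both lines, and knock-in BYL719 was lowest. The changes were -1.32 and -0.88 (difference -0.44, SE 0.07, adjusted p = 0.0081). IDI1 and CYP51A1 had differences of -0.33 and -0.20, kept in 7 and 2 of 12 fits that left out a library.

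Of 28 MYC and ribosome biogenesis genes, 21 fell in knock-in and 6 in parental cells, and 3 had a lower difference (median -0.18): NOP2 and NOP56, which modify ribosomal RNA, and RRS1, an assembly factor. NOP2 went from 58.5, 55.1 and 51.2 to 45.2, 45.1 and 41.8 CPM in parental cells and from 74.1, 71.8 and 81.5 to 46.3, 44.2 and 45.6 CPM in knock-in cells, so the lines were apart in DMSO and overlapped under BYL719 (-0.42, adjusted p = 0.0226). MYC had 0.25 (95% interval -0.12 to 0.61). Of 26 genes of G1/S and DNA replication, 15 fell in knock-in and 3 in parental cells, and CDC25A (-0.48), the phosphatase that activates CDK2, GINS1 (-0.36) and CDC6 (-0.25) were called. The call held in 6 of 12 fits that left out a library for NOP2, 2 for NOP56, 4 for RRS1, 12 for CDC25A, 4 for GINS1 and 3 for CDC6. With effective-length offsets none of these 3 lists had a called member, although 9, 13 and 8 members had an unadjusted p under 0.05 in the fit without them. DESeq2 called 8, 10 and 6 and limma voom with sample weights 9, 17 and 11. The edgeR counts were 9, 15 and 8, all lower, without knock-in DMSO replicate 2, against 4.01% of all genes tested.

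The CDK inhibitors moved in both directions. Of 16 genes of CDK inhibition and quiescence 5 had a higher difference (CCNG2, HBP1, CDKN1B, BTG1 and GAS1) and 2 a lower one (CDKN1C and CDKN1A). Of all genes tested, 2.08% had a higher and 0.797% a lower difference. CCNG2, HBP1 and CDKN1B are also in the FOXO list. CDKN1A, the inhibitor p21, stood at 215, 211 and 224, then 207, 205 and 202 CPM in parental cells and at 413, 420.3 and 382, then 273, 295 and 291 CPM in knock-in cells (-0.42, adjusted p = 0.00683). CDKN1B, the inhibitor p27, went from 71.0, 76.7 and 73.3 to 85.3, 84.2 and 85.9 CPM and from 57.1, 56.7 and 51.3 to 79.6, 85.8 and 85.2 CPM (0.39, adjusted p = 0.0144, kept in 6 of 12 such fits). The gap between lines under DMSO thus had opposite signs for p21 and p27 and was smaller under BYL719 for both.

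Genes that report ERK activity gave no call for a difference with all libraries, though that rests in part on 1 library. Within a line, 9 fell and 1 rose in knock-in cells and 2 fell and 1 rose in parental cells; SPRY2, a feedback inhibitor, was the gene that rose in both (0.64 and 0.39). Of 23 genes of ERK output and feedback, 0 were called for a difference by edgeR or DESeq2, 2 by limma voom with sample weights, and 2 had an unadjusted p under 0.05. The list's median change was -0.38 in each line and its median difference 0.04. FOSL1, a subunit of AP-1, stood at 23.4, 18.5 and 19.8 CPM in parental DMSO, 11.7, 10.4 and 8.78 CPM in parental BYL719, 35.8, 36.5 and 45.4 CPM in knock-in DMSO and 28.8, 15.8 and 15.8 CPM in knock-in BYL719. It fell in both lines (-0.96 in knock-in and -1.001 in parental cells, difference 0.04 with a 95% interval of -0.60 to 0.67). Knock-in BYL719 replicate 1 stood above the other 2 libraries of its group. The same library was high for DUSP6, the phosphatase of ERK (35.3 against 18.4 and 19.3 CPM), and for SPRY4, a feedback inhibitor (27.8 against 13.3 and 15.03 CPM). Without it the list's median change in knock-in cells was -0.65, the median difference was -0.26 and 1 gene was called. CCND1, cyclin D1, was that gene. It stood at 107, 98.5 and 92.5, then 67.8, 63.7 and 61.2 CPM in parental cells and at 182, 173 and 201, then 113, 86.8 and 92.1 CPM in knock-in cells (difference -0.30, 95% interval -0.59 to -0.02, adjusted p = 0.271 with all libraries).

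Opposite directions were seen for 24 genes with a higher and 22 with a lower difference, and in 1 and 0 of them did the parental change pass the test. CCN1 (chr1:85580761-85583950), a matrix-associated protein and a target of YAP, stood at 24.9, 23.6 and 23.4 CPM in parental DMSO, 21.0, 20.1 and 18.1 CPM in parental BYL719, 22.9, 25.1 and 25.1 CPM in knock-in DMSO and 38.8, 37.3 and 38.8 CPM in knock-in BYL719. The lines overlapped in DMSO, and BYL719 separated them on opposite sides of that level. CCN1 rose by 0.66 in knock-in cells and fell by 0.28 in parental cells (adjusted p = 0.0446), a difference of 0.94 (SE 0.09, 95% interval 0.75 to 1.12, adjusted p = 0.00015). Of 23 YAP and TEAD targets, CCN1 and RBMS3 (kept in 2 of 12 fits that left out a library) had a higher difference and 0 a lower one. The shares over all genes tested were 2.08% and 0.797%. The list's median was 0.23. Without knock-in DMSO replicate 2 the count was 7, against 4.7% of all genes, and the median was 0.11. CCN2, a close relative of CCN1, had 0.37 (-0.04 to 0.77). GPR1, a receptor for chemerin, stayed at 6.00, 6.53 and 6.67, then 5.87, 6.42 and 6.50 CPM in parental cells and went from 8.52, 8.28 and 8.59 to 12.8, 13.3 and 13.6 CPM in knock-in cells (0.67, adjusted p = 0.00169). ZNF362 had 0.48 (adjusted p = 0.00449), with a parental change of -0.01. Both GPR1 and ZNF362 lost their calls with effective-length offsets. The histone gene HIST2H4B had 2.01 (adjusted p = 0.00889), but it has near-identical copies and is uncertain.

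Of the 606 genes, 51 had a mean under 1 CPM in both groups of a line. In AL449106.1 the level was 0.647, 0.614 and 0.640 CPM in parental DMSO, 0.957, 0.884 and 0.939 CPM in parental BYL719, 0.270, 0.220 and 0.139 CPM in knock-in DMSO and 3.85, 5.03 and 3.94 CPM in knock-in BYL719 (difference 3.79, adjusted p = 2.21e-05). It passed 1 CPM in knock-in BYL719 alone. PLCL1, which encodes a protein related to phospholipase C, passed that level in parental cells and not in knock-in cells, and rose from a mean of 1.34 to 2.01 CPM in the former and from 0.144 to 0.693 CPM in the latter (1.68, adjusted p = 0.00117). SLC38A4, an amino acid transporter, had a mean of 0.117 CPM in both parental groups and went from 0.0381 to 0.606 CPM in knock-in cells (3.95, adjusted p = 0.00144).

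The remaining lists held few called members, given here beside shares of 2.08% higher and 0.797% lower over all genes tested. Of 21 NRF2 and pentose phosphate genes, GCLC (0.37), which makes glutathione, had a higher difference, and OSGIN1 (-0.70) and SRXN1 (-0.50) a lower one. Of 24 p53 targets, SESN1 (0.47), which is also in the FOXO list, was higher and CDKN1A and TIGAR (-0.39) lower. The clock genes RORA (0.82) and NR1D2 (0.57) were higher (2 of 16), as were SEMA3C, a semaphorin (0.72, 1 of 24), CLDN1, a tight junction protein (0.69, 1 of 22), and PDCD4, an inhibitor of translation initiation (0.49, 1 of 20 translation genes). EIF4E, the cap-binding factor, was lower (-0.32), as was BAMBI, a decoy receptor for TGF-beta (-0.82, 1 of 21). Of 26 mitotic genes HMMR was higher (0.29) and AURKA lower (-0.29). EGLN3, an oxygen sensor, was the only called gene of 28 in glycolysis and the HIF response (-0.39), and SLC38A2 the only one of 26 ATF4 targets. Of 25 immediate early genes KLF4 and CCN1 were called, and of 19 Notch and Wnt feedback genes DKK1. With effective-length offsets GCLC, SESN1, RORA, EIF4E, HMMR, SLC38A2, SGK1, KLF7, DSC3, WIPI1, ATG2A, IGF1R, RBMS3 and BTG1 lost their calls and kept their signs. In fits that left out a library, HMMR, EGLN3, SESN1 and EIF4E kept their calls in 4 of 12, OSGIN1 and SRXN1 in 5, TIGAR in 8, NR1D2 in 9 and GCLC, BAMBI and RORA in 10. Without knock-in DMSO replicate 2 the counts higher and lower were 3 and 4 for p53 targets, 4 and 2 for mitotic genes, 5 and 1 for the epithelial junction list, 3 and 2 for semaphorins and ephrins, 3 and 1 for TGF-beta feedback, 2 and 4 for translation, 0 and 2 for glycolysis and HIF, and 2 and 2 for ATF4 targets. In that fit 4.7% of all genes tested were called higher and 4.01% lower. Of the markers of other cell types, CD68 (0.33, adjusted p = 0.0459, kept in 2 of 12 fits) was the only call among 4 haematopoietic, 6 endothelial, 5 adipocyte, 5 neural and 9 fibroblast genes tested.

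Fatty acid synthesis (13 genes), NF-kB and inflammatory cytokines (19), interferon response (22), mesenchymal regulators (17) and matrix and contractile genes (20) had 0 calls by edgeR. The counts at an unadjusted p under 0.05 were 4, 7, 8, 5 and 1. DESeq2 called 0, 2, 2, 2 and 0, and limma voom with sample weights 3, 6, 6, 4 and 1. Leaving out knock-in DMSO replicate 2 gave edgeR counts, higher and lower, of 0 and 3, 3 and 1, 2 and 0, 1 and 1, and 0 and 0. The shares over all genes were then 4.7% and 4.01%. The members with the smallest p included ICAM1, a leukocyte adhesion molecule (0.34, adjusted p = 0.0531), SNAI1, a repressor of epithelial genes (-0.57, adjusted p = 0.0537), and FADS2, a fatty acid desaturase (0.17). At the threshold, the 5 nameable genes just inside had adjusted p from 0.0495 to 0.04995 and log2 sizes of 0.24 to 0.52, and the 5 just outside 0.05003 to 0.0511 and 0.22 to 0.34.

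**Figure D5:**
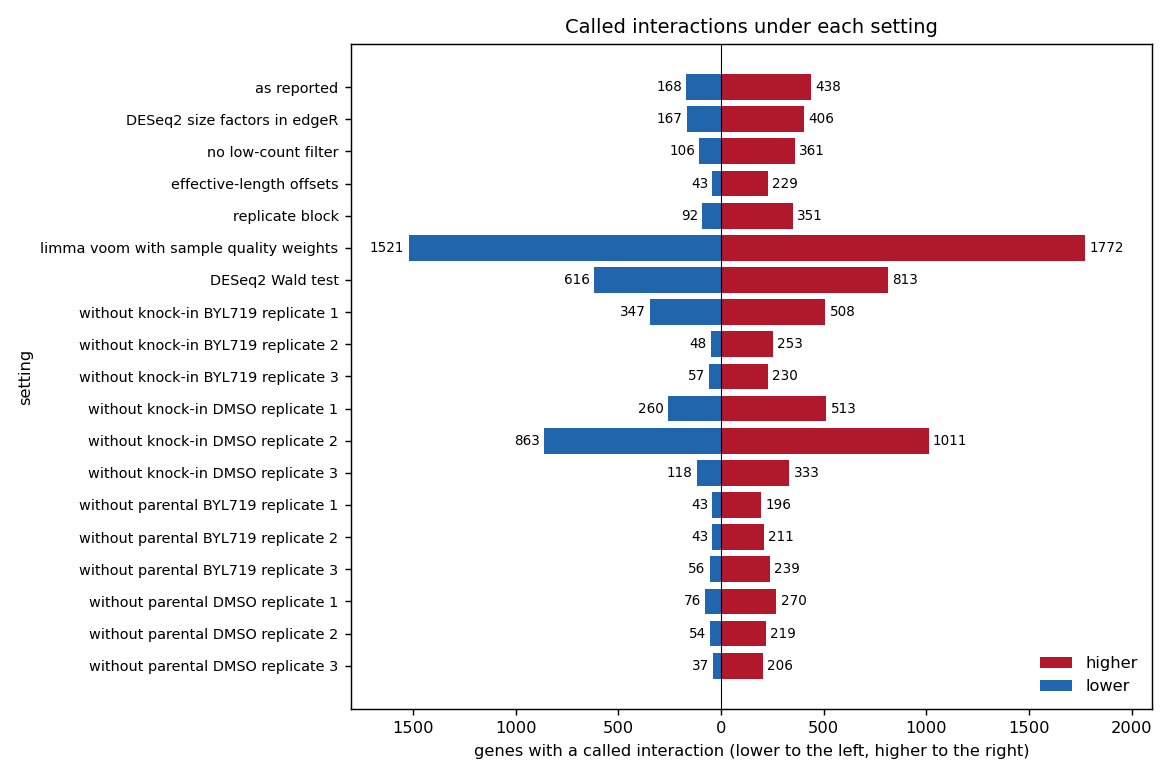
Number of genes called with a higher (red) and a lower (blue) difference under each setting and with each library left out. The fit with all libraries gives 438 and 168, leaving out knock-in DMSO replicate 2 gives 1011 and 863, and higher calls outnumber lower ones in each setting shown.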

How the data were processed

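Total RNA of 12 MCF10A samples was sequenced as paired reads, and groups follow the submitters' labels. The authors deposited, per the file headers, expected counts (estimated read pairs, not whole), TPM and effective length for 207749 transcripts in each library. Trim Galore 0.6.1 with cutadapt, Salmon 1.2.1, DESeq2 1.28.1 and the build GRCh38 are named per the submitters' processing notes. The sources used here do not give strandedness, so overlapping and antisense genes are uncertain, as are genes with near-identical copies. The deposited TPM was not tested.

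Expected counts were summed to 58434 gene identifiers and rounded. Genes that passed edgeR's filterByExpr were fitted with edgeR 4.0.16 (TMM library sizes, also used for CPM, robust quasi-likelihood, R 4.3.3) on all 4 groups, with 8 residual degrees of freedom, no covariate and adjusted p under 0.05 as the threshold. Depth was high in every library, and its counting error is part of the fitted spread. Alternatives were DESeq2 1.42.0 and its size factors, limma 3.58.1 voom with sample weights, no filter, effective-length offsets, the replicate number as a block and leaving out each library. On simulated counts with 100 genes changed per size, the interaction fit over 20727 genes recovered 55 at 1.5-fold and 86 at 2-fold, with 11 false calls (7.24% of calls).

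Genes named are eligible ones (called, at least 1 CPM in a group of each line, protein-coding): the 10 most positive and 10 most negative kept in all leave-one-out fits, the 4 smallest p of each direction class, up to 4 called members of each list or the smallest p where none was, and PIK3CA. Added to these were the 3 called genes of smallest p with a mean under 1 CPM in both groups of a line. GAS1 and other list members with values were added after their values were seen. The members and lists were chosen with earlier results of these data known. Coordinates, symbols' positions and promoter sequences come from RefSeq (GRCh38.p14). Some genes under this rule are not reported here.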

Additional observations from a re-analysis of the deposited data

Results flagged for a closer look

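For 606 genes the BYL719 response differed between the parental and the knock-in line by the edgeR quasi-likelihood test of the difference itself. In 4 of the genes named, the change also had opposite signs in the lines: HIST2H4B, with a difference of 2.01 on the log2 scale and copies that cannot be told apart, CCN1 with 0.94, GPR1 with 0.67 and ZNF362 with 0.48. The parental change passed the threshold in CCN1 alone of these 4, and it was only -0.03 in GPR1 and -0.01 in ZNF362. GPR1 and ZNF362 lost their call with effective-length offsets, and HIST2H4B without the filter on low counts. The causes were not tested. Groups held 3 libraries each, so no group was tested for a single library far from the others.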

How the results depend on the processing

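Of 81 named genes that were called, 0 changed sign in any setting and 42 kept the call in every setting. The cause of each change in counts was not tested. Genes with a different response, 606 in all (438 higher, 168 lower), became 272 (229, 43) with effective-length offsets, 3293 (1772, 1521) with limma voom and sample weights, which gave knock-in DMSO replicate 2 a weight of 0.0644, and 1429 (813, 616) with DESeq2. Without the low-count filter 467 were called (361 higher, 106 lower), and with DESeq2's size factors 573. The share of higher calls was 72.3% with all libraries, 84.2% with effective-length offsets, 53.8% with voom weights and 56.9% with DESeq2. The 302 genes called in parental cells became 134, 3046 and 891 with effective-length offsets, voom and DESeq2. With each library left out in turn, calls ranged from 239 to 1874 (higher 196 to 1011, lower 37 to 863), and calls in parental cells from 73 to 1973. The calls in knock-in cells moved by less than 1.5 times under each setting. Named calls were lost in 30 genes with effective-length offsets, 9 without the filter, 1 with size factors and 0 with voom or DESeq2. The median difference of the ERK list ran from -0.26 to 0.14 over the settings and changed sign in 8 of them.

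Any pairing of the samples by the replicate numbers in the labels was weak. Across 18 pairs of libraries with the same number in different groups, correlations of their deviations from group means ran from -0.0724 to 0.0795, none over 0.1, and 8 of 12 libraries were nearest to their own number. With the replicate block 443 genes were called, 351 higher and 92 lower, with 213 in parental cells, and 10 named genes lost their call. On simulated counts 55 of 100 genes changed 1.5-fold were found, so smaller differences are often missed with 3 libraries a group.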

Other observations

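Some called genes outside the lists are given here. They were chosen after their values were seen, so they show nothing about other genes of their kind. Among ribosome assembly factors, BRIX1 (-0.56), NIP7 (-0.55), BYSL (-0.55), NIFK (-0.50), RPF2 (-0.48), PNO1 (-0.41), RRP15 (-0.40) and WDR3 (-0.37) had a lower difference in response on the log2 scale by the edgeR test. So did enzymes of nucleotide, polyamine and methionine metabolism: UMPS (-0.41), the last steps of UMP synthesis, CTPS1 (-0.29), CTP synthetase, AMD1 (-0.41), which supplies polyamine synthesis, and MAT2A (-0.42), which makes S-adenosylmethionine.

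Transcription regulators with a higher difference included FOXL1 (1.24), HDAC5 (1.07), MXI1 (0.74), a MAX partner that opposes MYC, ESR2 (1.64), estrogen receptor beta, and ZBTB16 (0.90). HDAC5, a histone deacetylase, went from a mean of 19.0 to 26.8 CPM in parental and from 7.53 to 22.3 CPM in knock-in cells. Receptors and secreted factors included IL7R (1.32), S1PR1 (0.85) and S1PR3 (0.93), receptors for sphingosine-1-phosphate, and ANGPT1 (1.07), angiopoietin 1. IL7R, the interleukin 7 receptor chain, went from 2.55 to 3.12 CPM in parental and from 9.46 to 28.9 CPM in knock-in cells. The autophagy genes RB1CC1 (0.60), NBR1 (0.51), BNIP3L (0.33) and OPTN (0.31) were also higher, as was PDK2 (0.80), a second kinase of pyruvate dehydrogenase.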
